A study of Homo sapiens with 4 samples.

Results

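The SCAN domain family was examined in the gastric carcinoma cell line NCI-N87, an established human line, in which ZSCAN18, itself a family member, had been overexpressed. The 45 members were taken by gene name from the single deposited expression table, which lists 60612 genes, and all 45 were found in it. RNA sequencing covered 4 libraries, 2 of cells given the PLVX-IRES-Puro-ZSCAN18 vector and 2 of cells given the empty PLVX-IRES-Puro vector. Both groups carried their vector for 5 days, with 24 hours of transfection and 4 days of puromycin, so the drug selection is shared by both. No source used here names the promoter that drives the insert, and nothing states that the libraries came from separate cultures, so a p-value here reflects the spread between libraries, possibly a technical one. The study concerns ZSCAN18 and growth of gastric cancer, and the design holds 1 contrast, the ZSCAN18 vector against the empty one.

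The SCAN domain is a short, leucine-rich domain found in vertebrate zinc finger proteins. It does not bind DNA. It pairs with itself or with the SCAN domain of another family member, so that the set of members present in a cell decides which pairs can form. Most members carry C2H2 zinc fingers, which bind DNA, behind the SCAN domain. Some also carry a KRAB domain, which recruits the corepressor TRIM28 and through it the histone methyltransferase SETDB1. The ZSCAN18 promoter has been described as methylated in gastrointestinal tumours. Of the 45 members, 24, ZSCAN18 among them, stood in the deposited table under the KEGG orthology entry held by most ZSCAN genes, 15 under the entry held by the ZKSCAN genes, which have both a KRAB and a SCAN domain, and 6 under another or no entry. The genes lie in clusters. Chromosome 6 held 10 members, all between 28080568 and 28443480, and chromosome 19 held 10 between 56132599 and 58573575 (GRCh38). A further 6 lay on chromosome 16, 5 on chromosome 7 and 4 on chromosome 18.

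The sequences before the start sites are shown for ZSCAN18, for members without signal or among the highest, and for a divergent pair. CpG dinucleotides, the sites of DNA methylation, differ widely in number among these sequences. Each is the stretch of 250 bases that ends just before a RefSeq start (GRCh38.p14), written 5′ to 3′ on the strand of the gene, with every CG in capitals. ZSCAN18 has 2 such starts, an upstream one with the window chr19:58118405-58118654 (minus strand) and a downstream one with the window chr19:58098232-58098481 (minus strand). ZSCAN1 (chr19:58033775-58034024, plus strand) neighbours ZSCAN18 and gave no signal here, ZSCAN4 (chr19:57668685-57668934, plus strand) gave none either, and ZKSCAN1 (chr7:100015346-100015595, plus strand) was among the highest members. The last line is the stretch of 210 bases between the divergent starts of ZSCAN32 and ZNF174 (chr16:3401005-3401214, plus strand).
ZSCAN18 upstream start: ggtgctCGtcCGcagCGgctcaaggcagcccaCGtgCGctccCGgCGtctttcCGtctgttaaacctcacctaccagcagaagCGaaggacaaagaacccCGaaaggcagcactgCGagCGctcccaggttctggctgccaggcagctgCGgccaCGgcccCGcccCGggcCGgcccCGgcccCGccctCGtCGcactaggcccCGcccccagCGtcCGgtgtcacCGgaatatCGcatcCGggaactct
ZSCAN18 downstream start: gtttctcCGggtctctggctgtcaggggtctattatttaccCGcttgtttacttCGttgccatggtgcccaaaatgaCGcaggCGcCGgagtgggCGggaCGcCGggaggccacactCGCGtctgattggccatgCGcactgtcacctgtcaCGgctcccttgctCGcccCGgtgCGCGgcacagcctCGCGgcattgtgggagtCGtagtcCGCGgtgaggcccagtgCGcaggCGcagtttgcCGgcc
ZSCAN1: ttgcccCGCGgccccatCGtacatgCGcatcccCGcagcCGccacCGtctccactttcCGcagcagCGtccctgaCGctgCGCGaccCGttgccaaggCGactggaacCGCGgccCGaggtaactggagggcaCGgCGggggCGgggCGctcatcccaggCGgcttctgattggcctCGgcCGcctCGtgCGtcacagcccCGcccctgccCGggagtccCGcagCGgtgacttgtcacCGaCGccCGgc
ZSCAN4: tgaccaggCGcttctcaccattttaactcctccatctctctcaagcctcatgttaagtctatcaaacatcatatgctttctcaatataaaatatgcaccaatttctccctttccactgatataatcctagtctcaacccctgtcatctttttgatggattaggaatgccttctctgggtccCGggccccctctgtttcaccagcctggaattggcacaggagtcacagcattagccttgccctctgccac
ZKSCAN1: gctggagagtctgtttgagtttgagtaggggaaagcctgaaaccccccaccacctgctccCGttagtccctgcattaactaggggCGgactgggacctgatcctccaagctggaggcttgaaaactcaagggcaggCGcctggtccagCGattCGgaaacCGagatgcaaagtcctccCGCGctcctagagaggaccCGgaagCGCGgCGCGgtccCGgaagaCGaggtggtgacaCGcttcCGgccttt
ZSCAN32 to ZNF174: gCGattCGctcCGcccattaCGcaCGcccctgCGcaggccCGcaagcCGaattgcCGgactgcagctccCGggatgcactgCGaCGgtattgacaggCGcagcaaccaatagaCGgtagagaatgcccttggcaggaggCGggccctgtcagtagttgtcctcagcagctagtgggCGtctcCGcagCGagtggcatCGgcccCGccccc

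The upstream ZSCAN18 window held 27 CG and the downstream one 25. Of all 35116 RefSeq promoter windows of that length, 17.7% held at least 27 CG and 21.6% at least 25, and the median window held 11. CG reads the same on both strands, and 93.9% of all windows held at least 1. The ZSCAN1 window held 33 CG, the ZKSCAN1 window 17 and the ZSCAN4 window 2. The stretch between ZSCAN32 and ZNF174 held 20. RefSeq windows were matched by symbol for 37 of the 45 members. Taking each gene's richest window, the 26 members that passed the filter on low values had a median of 19 CG, with a range of 12 to 32, and the 11 that did not pass had a median of 21, with a range of 2 to 33. ZSCAN4 with 2, ZSCAN10 with 3 and ZKSCAN3 with 7, all below the filter, had fewer CG than any of the 26 above it. ZSCAN18 counts among the 26 only through its insert, and ZNF213 and ZSCAN22 only through the ZSCAN18 libraries. Methylation was not measured in these libraries.

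ZSCAN18 (ENSG00000121413, chromosome 19, 58083838 to 58118427, minus strand) was the most abundant member in both libraries of its vector and nearly silent without it. Its FPKM, a level corrected for transcript length and library depth, was 116 and 112 with the ZSCAN18 vector and 0.108 and 0.144 with the empty vector. The groups lay far apart, and the libraries within each lay close together. On log2(FPKM + 1) the fold change was 6.67 (SE 0.059), with an adjusted p of 0.000413 in limma. Leaving out library 1 of the ZSCAN18 group gave 6.65 and leaving out library 2 gave 6.69, and the adjusted p from limma was then 0.0864 and 0.0849. This value checks the labels and is no finding, since ZSCAN18 is the insert. It matters for the assignment of columns, because the 2 ZSCAN18 columns bear headings unlike any title and were assigned by elimination. FPKM per gene does not tell RNA of the vector from RNA of the chromosomal gene.

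The level in the empty vector libraries rested on few fragments. The longest annotated ZSCAN18 transcript has 5729 bases, and with it the FPKM values correspond to at most 15 and 20 fragments. These fragment numbers come from depths of about 23100000 and 23400000 fragments for ZSCAN18 and 23800000 and 24600000 for the empty vector, which were estimated from the steps between low FPKM values. At an FPKM of 1, a transcript of 1 kb would rest on 23 to 25 fragments, with a counting error of 20.1 to 20.8% of its value. ZNF135, a zinc finger gene on the opposite strand that overlaps ZSCAN18 by 2473 bases, was at 0.738 in the first ZSCAN18 library and at 0.0001, the value the table holds for no signal, in the other 3 libraries. No source used here tells if strand entered the counting.

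Set against its relatives by FPKM, ZSCAN18 went from a trace to more than all of them together. ZSCAN18 made up 54.0 and 54.6% of the summed FPKM of the 45 members with its vector, and 0.133 and 0.176% with the empty vector. The next member stood at 9.02 in the first ZSCAN18 library, where it was ZNF24, and at 8.96 in the second, where it was SCAND1, so ZSCAN18 exceeded it 12.8-fold and 12.5-fold. With the empty vector ZSCAN18 ranked 38 and 37 among the members. The mean share with the ZSCAN18 vector was 54.3% ± 0.433 (SD, n = 2). The ratio of ZSCAN18 to the sum of all other members, 119%, says the same of the vector cells in other terms. These shares and folds depend on the transcript length behind the FPKM. ZSCAN18 has 17 annotated transcripts of 155 to 5729 bases, and the length of the RNA made from the vector was not measured.

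**Figure D1:**
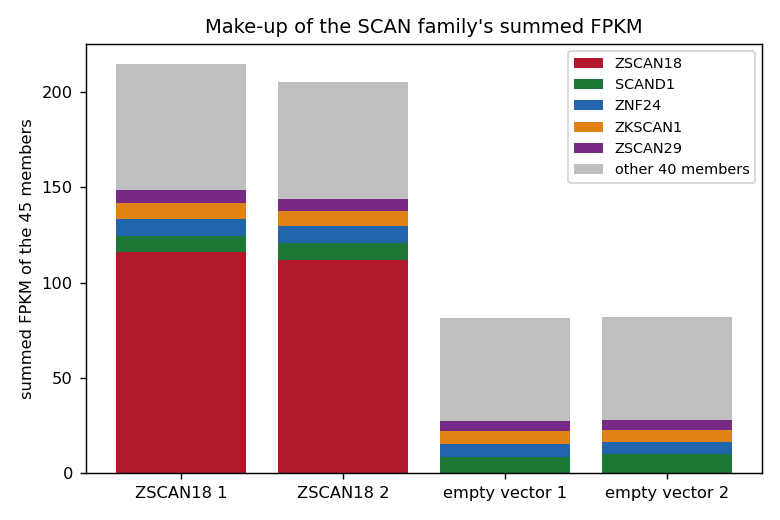
Summed FPKM of the 45 SCAN family members in each of the 4 libraries (vertical axis, FPKM), divided into ZSCAN18, the 4 next highest members and the other 40. ZSCAN18 fills 54.0 and 54.6% of the bars of its own vector and is not visible in the empty vector bars, while the remainder stands at 98.6 and 93.3 against 81.2 and 81.7.

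The 44 other members together stood somewhat higher in the ZSCAN18 libraries. Their summed FPKM was 98.6 and 93.3 in ZSCAN18 cells against 81.2 and 81.7 in empty vector cells, or 96.0 ± 3.74 (SD, n = 2) against 81.4 ± 0.348. All FPKM of the table summed to 293062 and 296112 with ZSCAN18 and to 312147 and 304029 with the empty vector, so the 44 members took 0.0336 and 0.0315% of the total against 0.0260 and 0.0269%. In bulk RNA, fewer cells that express a gene and less RNA of it per cell cannot be told apart.

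No member other than ZSCAN18 was an abundant transcript. Of the 44, 0 had a mean FPKM of 10 or more, 4 had 5 or more, 11 lay between 2 and 5 and 13 between 1 and 2. SCAND1, a SCAN domain without zinc fingers that pairs with MZF1 and ZNF202, had the highest mean over the 4 libraries, at 8.83. In the ZSCAN18 group alone ZNF24 was higher, at 8.83 against 8.62, and the ranges of these genes overlapped, as 8.16 to 9.94 for SCAND1 and 6.35 to 9.02 for ZNF24. ZNF24, a transcriptional repressor, followed over all libraries at 7.72, ZKSCAN1, whose locus also gives rise to a circular RNA, at 7.31, and ZSCAN29 at 6.10. FPKM is scaled to length, so these levels may be compared between genes, but ZNF24 and ZKSCAN1, neighbours in this order, overlapped too, with 6.37 to 8.24 for ZKSCAN1. A further 4 members, ZSCAN1, ZSCAN4, ZSCAN10 and ZSCAN23, were at the no-signal value in all 4 libraries. ZSCAN4 is known from cleavage-stage embryos, and ZSCAN10 from pluripotent cells. PEG3, an imprinted gene expressed from the paternal allele, was at 0.00444 in the first ZSCAN18 library, at 0.00855 in the first empty vector library and without signal in the others.

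**Figure D2:**
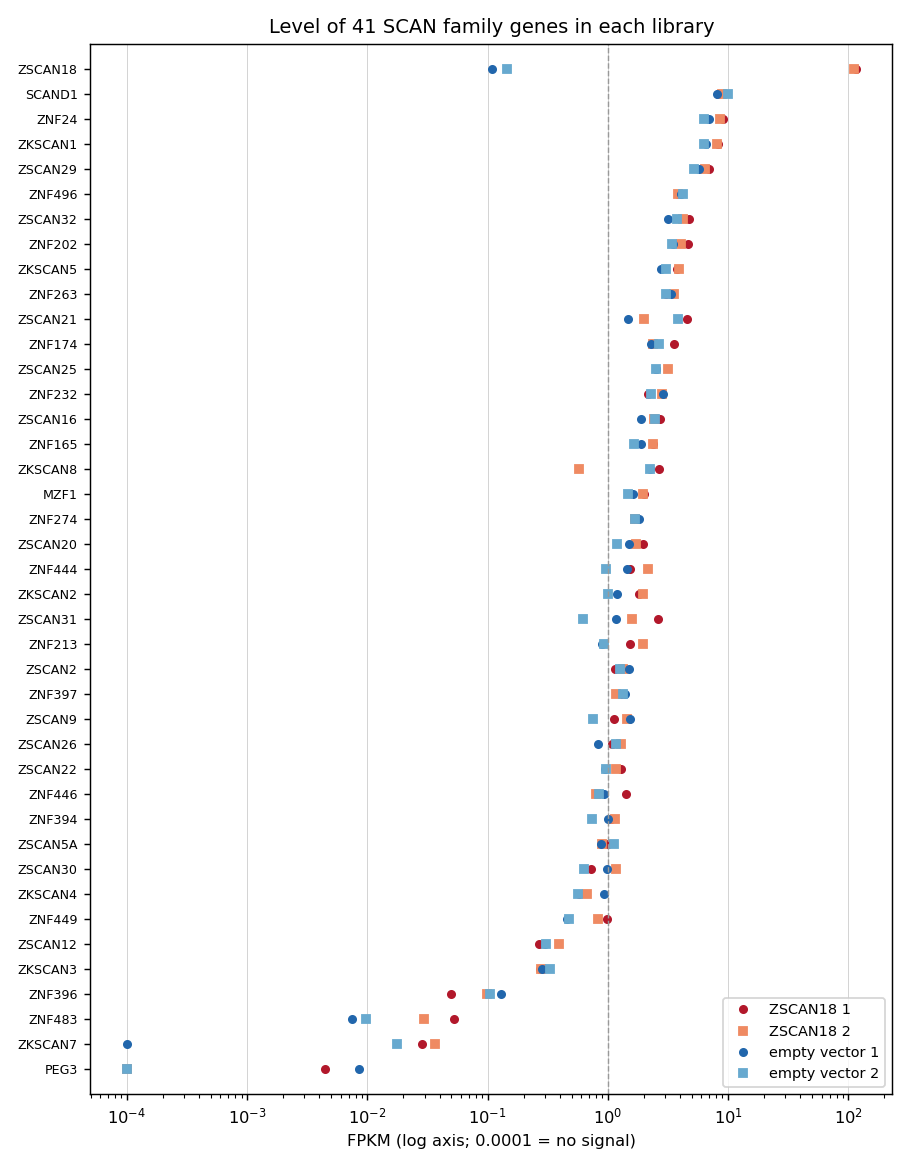
FPKM (horizontal log axis) of the 41 members with a signal in at least 1 library, ordered by their mean, with 1 point per library and a dashed line at an FPKM of 1. ZSCAN18 alone shows a wide gap between the groups, from 0.108 and 0.144 to 116 and 112; ZKSCAN8 shows 1 ZSCAN18 library at 0.578, apart from the other 3 at 2.25 to 2.68.

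The groups were compared over the 11822 genes that reached an FPKM of 1 in 2 or more libraries, among them 31 of the 45 members. ZSCAN18 was the 1 member that passed at an adjusted p under 0.05 in limma, and it was higher. Of all tested genes 0.795% were called higher and 0.973% lower. Of the 30 other tested members 0 were called in either direction in limma. At an unadjusted p under 0.05 in limma, 10 (33.3%) were higher and 0 lower. Beside them stood 15.9% higher and 11.0% lower of all tested genes, and 22.3% and 3.36% of 417 other tested zinc finger genes. Among the 10 higher members was ZNF213, which passed the filter only through the ZSCAN18 libraries. With 2 libraries a group, missing the threshold does not show that a member kept its level. In simulated data of the same size, a log2 change of 1 was recovered in 66.0% of genes and one of 2 in 87.7%, and the members' values were smaller than these.

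ZNF24 had the smallest p after ZSCAN18. Its FPKM was 9.02 and 8.64 in ZSCAN18 cells against 6.89 and 6.35 in empty vector cells. Both ZSCAN18 libraries lay above both empty vector libraries, by more than the distance within either group. The log2 fold change was 0.37 (SE 0.071), with an adjusted p of 0.0831 in limma. ZKSCAN1 was at 8.24 and 8.03 against 6.62 and 6.37, again without overlap, with a log2 fold change of 0.29 (SE 0.061, limma adjusted p = 0.0955). ZSCAN29 was at 6.96 and 6.49 against 5.72 and 5.25, with a log2 fold change of 0.25 (SE 0.077, limma adjusted p = 0.149). ZSCAN29 overlaps TUBGCP4, a gene on the opposite strand at a mean FPKM of 7.36, over 1687 bases. In all 3 the groups were separate and higher, as they were in 35.8% of all tested genes, while 24.4% were separate and lower.

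Among the members with a KRAB domain, ZKSCAN2 and ZNF213 had the largest fold changes. ZKSCAN2 was at an FPKM of 1.83 and 1.96 in ZSCAN18 cells against 1.20 and 1.01 in empty vector cells. ZNF213 was at 1.52 and 1.95 against 0.893 and 0.930. In both genes the groups were separate and higher, as in 35.8% of all tested genes, and the empty vector libraries were close together. The log2 fold changes were 0.46 (SE 0.098) for ZKSCAN2 and 0.51 (SE 0.117) for ZNF213, with adjusted p of 0.0939 and 0.103 in limma. ZNF213 passed the filter only through the ZSCAN18 libraries, and an antisense gene at a mean of 0.386 covers 13028 bases of it. ZKSCAN5 was at 3.74 and 3.94 against 2.76 and 3.08, with a log2 fold change of 0.31 (SE 0.082, limma adjusted p = 0.128).

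ZNF202, a repressor of genes of lipid metabolism that pairs with SCAND1, was at an FPKM of 4.64 and 4.06 in ZSCAN18 cells against 3.49 and 3.40 in empty vector cells. The groups did not overlap, and the log2 fold change was 0.27 (SE 0.087, limma adjusted p = 0.163). ZNF496, whose mouse counterpart binds the histone methyltransferase NSD1, had the opposite order, at 3.85 and 3.84 against 4.04 and 4.22, with a log2 fold change of -0.08 (SE 0.068, limma adjusted p = 0.484). ZNF263, a DNA-binding repressor, overlapped between the groups, at 3.04 and 3.55 against 3.38 and 3.04. Its log2 fold change of 0.03 became -0.01 after median of ratios scaling and -0.02 after quantile normalization. Of the 10 tested members under the KRAB and SCAN entry, 8 had a positive fold change, with a median of 0.22, beside 57.1% and 0.04 over all tested genes. In limma 0 passed, beside 0.795% higher and 0.973% lower of all tested genes. At an unadjusted p under 0.05, 5 (50.0%) were higher, among them ZNF213, which passed the filter only through the ZSCAN18 libraries. Lower were 0, and the shares of all tested genes were 15.9% higher and 11.0% lower. The other tested zinc finger genes gave 22.3% and 3.36%.

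The members under the SCAN entry were led by ZSCAN31. On log2(FPKM + 1) it had the largest fold change of the 30 tested relatives, with an FPKM of 2.60 and 1.59 in ZSCAN18 cells against 1.16 and 0.628 in empty vector cells. The groups were separate, yet the 2 libraries of each group differed by more than the gap between the groups, and the log2 fold change of 0.70 had an SE of 0.237 (limma adjusted p = 0.171). ZSCAN31 overlaps the member ZKSCAN3 on the opposite strand over 6325 bases. ZNF165, a cancer-testis antigen, was at 2.39 in both ZSCAN18 libraries and at 1.88 and 1.65 with the empty vector (log2 fold change 0.29, SE 0.087, limma adjusted p = 0.146). Of the 16 tested members under the SCAN entry besides ZSCAN18, 12 had a positive fold change, with a median of 0.18, beside the same 57.1% and 0.04. In limma 0 passed, beside 0.795% higher and 0.973% lower of all tested genes. At an unadjusted p under 0.05, 4 (25.0%) were higher and 0 lower, beside 15.9% and 11.0% of all tested genes. The other tested zinc finger genes gave 22.3% and 3.36%.

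Among the members best known for pairing through the SCAN domain, the groups overlapped in some and were separate in others. Of all tested genes 35.8% were separate and higher and 24.4% separate and lower. SCAND1 was at an FPKM of 8.29 and 8.96 in ZSCAN18 cells against 8.16 and 9.94 in empty vector cells, so the groups overlapped fully (log2 fold change -0.06, SE 0.112, limma adjusted p = 0.770). MZF1, a zinc finger protein of myeloid cells, was at 1.99 and 1.98 against 1.61 and 1.47, without overlap (log2 fold change 0.24, SE 0.084, limma adjusted p = 0.184). MZF1 shares 11184 bases with its antisense gene MZF1-AS1, which was at a mean of 0.445. ZNF174, whose SCAN domain forms a homodimer, was at 3.57 and 2.38 against 2.28 and 2.69, where the first ZSCAN18 library alone stood apart. Its log2 fold change of 0.18 (SE 0.180, limma adjusted p = 0.569) became -0.04 without that library. ZSCAN32, which starts beside ZNF174 on the other strand, was at 4.78 and 4.2 against 3.16 and 3.77 (log2 fold change 0.30, SE 0.110, limma adjusted p = 0.191), so of this divergent pair 1 gene had separate groups and the other did not.

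**Figure D3:**
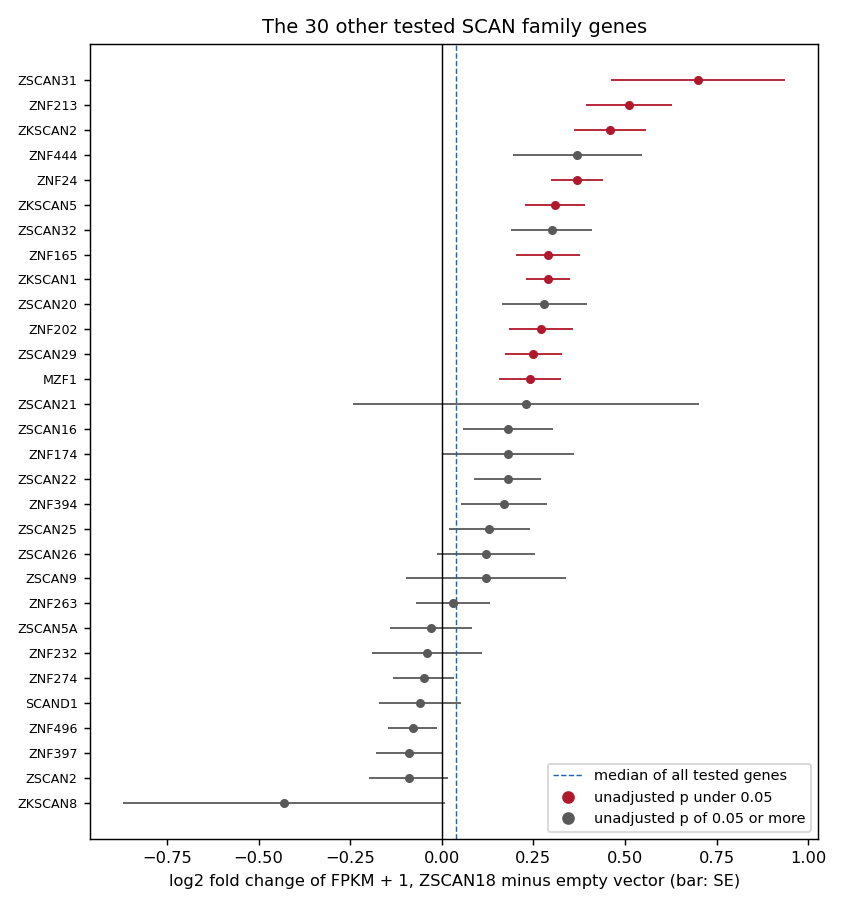
Log2 fold change of FPKM + 1, ZSCAN18 minus empty vector (horizontal axis), of the 30 tested members other than ZSCAN18, with the SE as bars and red for an unadjusted p under 0.05 in limma. The values run from -0.43 for ZKSCAN8 to 0.70 for ZSCAN31, and the 10 red points all lie to the right of the dashed line, the median of all tested genes at 0.04.

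Most tested relatives lay on the positive side, as did most other zinc finger genes. Of the 30, 22 (73.3%) had a positive fold change, with a median of 0.18, beside 57.1% and a median of 0.04 over all 11822 tested genes. Among 417 other tested zinc finger genes 76.7% were positive, with a median of 0.13. Among all tested genes with a mean FPKM of 1 to 10, the range of most members, 61.3% were positive, with a median of 0.07. The groups were separate and higher in 16 of the 30 (53.3%) and separate and lower in 3, beside 35.8% and 24.4% of all tested genes and 47.2% and 10.1% of the other zinc finger genes. Whether the family differs from these genes was not tested. The filter favours members that are high in 1 group: ZNF213 and ZSCAN22 passed only through the ZSCAN18 libraries. Over all 44 relatives, with no filter, 19 were separate and higher, 5 separate and lower, 16 overlapped and 4 had no signal, beside 25.2% higher and 16.0% lower of the 30288 genes with a signal.

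**Figure D4:**
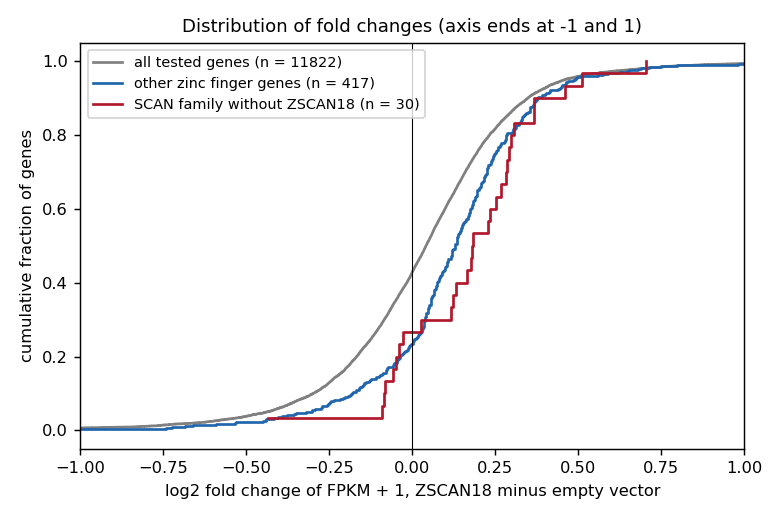
Cumulative fraction of genes (vertical axis) by log2 fold change of FPKM + 1, ZSCAN18 minus empty vector, for the 30 tested relatives of ZSCAN18, 417 other zinc finger genes and all 11822 tested genes; the horizontal axis ends at -1 and 1. The curves of the family and of the other zinc finger genes both lie to the right of that of all genes, with medians of 0.18, 0.13 and 0.04.

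Several members varied more within a group than between groups. ZKSCAN8 was at an FPKM of 2.68 and 0.578 in ZSCAN18 cells against 2.25 and 2.26 in empty vector cells, so 1 library alone was low. ZSCAN21 was at 4.52 and 1.99 against 1.47 and 3.87, with 1 high and 1 low library in each group. A distance of at least 2-fold within a group was found in 3 of the 30 relatives (10.0%), the third being ZSCAN9, and in 6.16% of all tested genes. These 3 were singled out after their values were seen. All have several annotated transcripts in the deposited table, as have all other tested relatives except ZNF165, ZSCAN16 and ZSCAN22.

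ZNF274, which recruits SETDB1 to zinc finger gene clusters, was at 1.65 and 1.69 in ZSCAN18 cells against 1.83 and 1.70 in empty vector cells, a separation of less than the distance between the empty vector libraries. ZNF444, known for binding the SCARF1 promoter, was at 1.53 and 2.16 against 1.44 and 0.970. ZSCAN20 was at 1.98 and 1.72 against 1.5 and 1.19, and ZSCAN22 at 1.28 and 1.17 against 0.949 and 0.971. In these 3 genes both ZSCAN18 libraries lay higher, and none of the 3 passed the test. Over all tested genes 35.8% were separate and higher and 24.4% separate and lower. Groups of ZSCAN16, ZNF232, ZSCAN2, ZSCAN26 and ZSCAN9 overlapped, at means of 1.09 to 2.54. ZSCAN25 and ZNF394 were separate and higher, at means of 2.69 and 0.987, and ZNF397 was separate and lower, at 1.3. These members were described beyond the rule for named genes, to account for every member.

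Just inside the filter lay ZSCAN5A, at 1.01 and 0.903 in ZSCAN18 cells against 0.882 and 1.12 in empty vector cells, and just outside it ZSCAN30, at 0.722 and 1.18 against 0.979 and 0.631. Of the 14 members that did not pass, 10 had a signal in at least 1 library. ZNF449 was at 0.978 and 0.830 in ZSCAN18 cells against 0.462 and 0.475 in empty vector cells, without overlap. Separate and lower was ZKSCAN3, a repressor of autophagy and lysosome genes, with 0.274 and 0.279 against 0.284 and 0.329. ZNF483 was at 0.0522 and 0.0299 against 0.00753 and 0.00969, levels at which a few fragments decide the value. ZNF446, ZKSCAN4 and ZSCAN12 overlapped, at means of 0.999, 0.687 and 0.319. ZNF396 lay lower with ZSCAN18 at a mean of 0.0958 over all libraries, and ZKSCAN7 higher at 0.0207.

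In the authors' deposited table the log2 fold change of ZSCAN18, a plain ratio of FPKM, was 9.82. The authors' deposited table marked 2 members as significant, ZSCAN18 and ZSCAN31, beside 0.845% of all 60612 genes. The authors' deposited table gave ZSCAN31 a log2 fold change of 1.23, a p-value of 0.0047 and a q-value of 0.116. All 512 marked genes had a p-value under 0.05 and a log2 fold change of at least 1 in size, and 214 of them a q-value under 0.05. By q-value in the authors' deposited table, 1 member, ZSCAN18, lay under 0.05. ZNF213, ZKSCAN2 and ZNF449 had p-values of 0.0104, 0.0164 and 0.0262 and q-values of 0.192, 0.246 and 0.319 in the authors' deposited table, whose fold is a ratio of the same FPKM.

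The chromosomal neighbourhood of ZSCAN18 was examined because the vector supplies only the insert. Within 250 kb of the gene the table listed 48 genes, of which 34 had a signal and 12 were tested. In limma 0 were called, beside 0.795% higher and 0.973% lower of all tested genes. At an unadjusted p under 0.05, 4 (33.3%) were higher and 0 lower, beside 15.9% and 11.0% of all tested genes. Of the other tested zinc finger genes 22.3% were higher and 3.36% lower at that limit. ZNF8, among the 4 higher genes, passed the filter only through the ZSCAN18 libraries, as did ZSCAN22. ERVK3-1, a gene derived from an endogenous retrovirus, was at 6.66 and 6.88 in ZSCAN18 cells against 4.96 and 4.42 in empty vector cells (log2 fold change 0.45, SE 0.080, limma adjusted p = 0.0773). ZNF417 was at 2.69 and 2.52 against 1.53 and 1.77 (log2 fold change 0.44, SE 0.092, limma adjusted p = 0.0898), and ZNF587 at 3.68 and 4.30 against 2.91 and 3.12 (log2 fold change 0.31, SE 0.096, limma adjusted p = 0.152). The groups were separate and higher in each, as in 35.8% of all tested genes. ZNF8 was at 2.0 and 2.29 in ZSCAN18 cells against 0.0001 and 0.705 in empty vector cells, while the read-through gene ZNF8-ERVK3-1, which overlaps it, was at 0.668 and 0.210 against 1.68 and 0.637. How fragments were divided between these overlapping genes is uncertain. ZNF274 and ZSCAN22, both members, are also among the 12.

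**Figure D5:**
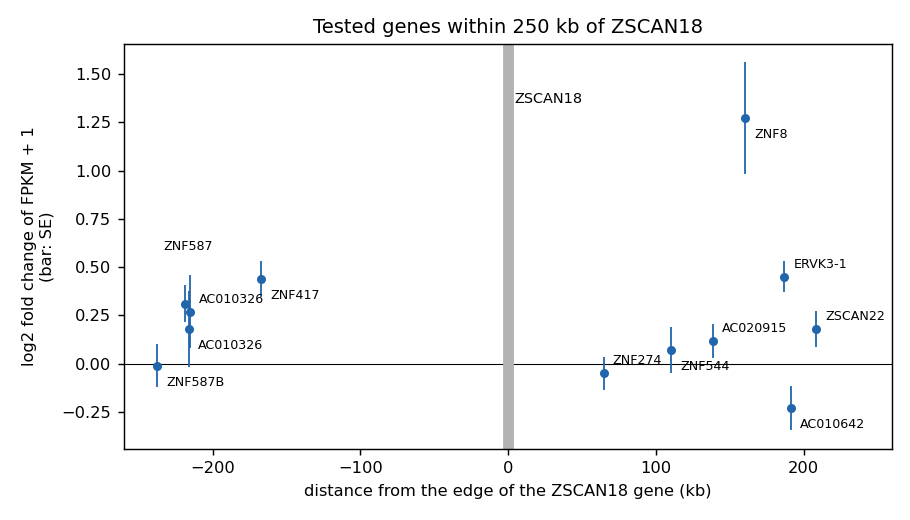
Log2 fold change of FPKM + 1, ZSCAN18 minus empty vector, with SE bars, of the 12 tested genes within 250 kb of ZSCAN18, by distance in kb from the edge of the gene (grey band). ZNF8, which passed the filter only through the ZSCAN18 libraries, stands at 1.27, with no signal in 1 empty vector library. The others lie between -0.23 and 0.45.

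The genes listed for the corepressors that KRAB domains work through gave values close to those of all genes. The list held 25 gene names, those of the TRIM28, SETDB1, HUSH and NuRD machinery and also ATRX, DAXX and MORC3. TASOR and its synonym FAM208A were both listed, and 24 were found and tested. Their fold change was positive in 15 (62.5%), beside 57.1% of all tested genes, with a median of 0.04 in both. In limma 0 passed, beside 0.795% higher and 0.973% lower of all tested genes, and at an unadjusted p under 0.05, 3 (12.5%) were higher and 0 lower, beside 15.9% and 11.0%. TRIM28 was at an FPKM of 72.0 and 75.5 with ZSCAN18 and at 75.6 in both empty vector libraries, and SETDB1 at 7.29 and 6.78 against 6.44 and 6.0; both were chosen after their values were seen. GATAD2B, a subunit of the NuRD complex, was at 6.29 and 6.65 against 4.96 and 4.90 (log2 fold change 0.33, SE 0.066, limma adjusted p = 0.0859). MORC3, a nuclear ATPase, was at 3.03 and 2.84 against 2.02 and 2.14 (log2 fold change 0.35), CHD3 at 10.7 and 11.8 against 9.44 and 9.29 (0.24), and MBD3 at 4.10 and 3.05 against 4.40 and 5.43 (-0.38).

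Of 17 further SCAN gene names outside the 45, some of them synonyms, 14 were found and 4 genes were tested. In limma 0 passed, beside 0.795% higher and 0.973% lower of all tested genes. At an unadjusted p under 0.05 there were 0, beside 15.9% higher and 11.0% lower of all tested genes. ZNF500 was at 1.65 and 1.80 in ZSCAN18 cells against 1.10 and 1.52 in empty vector cells, ZNF18 at 1.20 and 1.28 against 1.11 and 0.865, ZNF445 at 1.3 and 1.12 against 1.02 and 0.987, and ZNF197 at 1.91 and 2.11 against 1.9 and 1.65. The log2 fold changes were 0.24, 0.18, 0.14 and 0.12. Each had both ZSCAN18 libraries above both empty vector libraries, as had 35.8% of all tested genes and 47.2% of the other zinc finger genes; in ZNF197 the nearest libraries, at 1.91 and 1.9, almost touched.

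Of 11 genes that earlier work ties to SCAN factors, 6 were tested. This list, like the others, was chosen with earlier results of these data known, so the counts are description only. In limma 1 was called higher and 0 lower, beside 0.795% and 0.973% of all tested genes, and at an unadjusted p under 0.05 there were 4 higher and 1 lower, beside 15.9% and 11.0%. MAP1LC3B, a protein of the autophagosome membrane that ZKSCAN3 represses, rose from 11.2 and 10.9 with the empty vector to 16.2 and 17.1 with ZSCAN18 (log2 fold change 0.55, SE 0.059, limma adjusted p = 0.0448). That call ended with a lower filter or none, without the variance trend, with the replicate number as a block and without any 1 library. ULK1, the kinase that starts autophagy, was at 2.99 and 2.72 against 1.76 and 1.9 (limma adjusted p = 0.0832). VEGFA, the vascular growth factor that ZNF24 represses, was at 2.41 and 2.56 against 1.62 and 1.55 (limma adjusted p = 0.0815), and ITGB4, an integrin subunit, at 29.8 and 32.9 against 38.9 and 40.1 (limma adjusted p = 0.0921). ABCA1 and ABCG1, lipid exporters that ZNF202 represses, were under 0.2 in all libraries. These values say nothing of which factor acted on a gene.

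The libraries carried the marks of an epithelial carcinoma line. All 7 listed epithelial markers, ERBB2 among them, had an FPKM of at least 1 in every library, with sums of 3817 and 3994 in ZSCAN18 cells against 4527 and 4294 in empty vector cells. Of 7 markers of blood, stromal and endothelial cells 2 reached 1 with ZSCAN18 and 1 with the empty vector, with sums of 4.46 to 5.84, and PTPRC, CD3E and PECAM1 stayed under 0.2. Of the epithelial markers, KRT18 fell (log2 fold change -0.39, limma adjusted p = 0.0408) and CLDN4 rose (0.64, limma adjusted p = 0.044), but both calls were lost with the replicate block, with no filter and without any 1 library. KRT8 (log2 fold change -0.43), ERBB2 (-0.21) and EPCAM (-0.1) were not called but were also separate and lower, as were 24.4% of all tested genes. CDH1 and KRT19 overlapped between the groups. Of the other-cell markers CD68 was at 2.26 and 2.71 against 4.22 and 4.53, lower with ZSCAN18. COL1A1 was higher, at 1.46 and 1.09 against 0.994 and 0.469, as was COL1A2, at 0.614 and 0.578 against 0.493 and 0.182. The part of these markers in the results above was not tested.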

How the data were processed

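RNA of 4 NCI-N87 libraries was sequenced by the authors, who deposited 1 table. Per the file headers it holds an FPKM per library, a linear fold (ratio), its log2 value, a p-value and a q-value. The submitters' processing notes list DESeq2, edgeR 3.2.5, StringTie 1.3.4d, HISAT2 2.0.4, FastQC 0.10.1 and cutadapt 1.9, with no roles; no source used here states the build or the use of strand. Of the 60612 gene identifiers 58394 were found in GENCODE release 29, 99.8% starting no more than 100 kb away, and coordinates are stated as GRCh38. The deposited log2 fold is that of the summed FPKM per group, with 0 genes off by more than 0.001.

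The empty vector columns carry sample titles; the other 2 were assigned by elimination, and their numbers are those of the columns. The members and lists were chosen with earlier results of these data known. Since FPKM is no count, count models were left out. Depth came from single-exon, single-transcript genes over 400 bases, taking the most common FPKM times length as 1 fragment; low values were within 0.05 of whole multiples in 33.5 to 35.6% of cases, so fragments per gene were not recovered. The filter kept genes reaching an FPKM of 1 in 2 or more of the 4 libraries, tested with limma 3.58.1 in R 4.3.3 on log2(FPKM + 1), a term for the group, eBayes with trend (2 residual and 2.01 prior degrees of freedom) and Benjamini-Hochberg adjustment over all 11822 tested genes, two-sided, threshold 0.05. Fold changes on this scale understate the change of low genes. The smallest p of an exact permutation test with 2 and 2 libraries is 0.333. In 10 simulated data sets of 11822 genes, 200 of them changed, a mean of 6.6 unchanged genes were called. Promoter sequences are from RefSeq (GRCh38.p14).

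Described in full were ZSCAN18, members with an adjusted p under 0.05, the 12 with the smallest p, the 10 highest by mean FPKM, those next to the filter and SCAND1, MZF1, ZNF202, ZNF174, ZNF24 and ZNF263; from other lists, called genes and up to 4 with the smallest p. Alternatives varied the pseudocount, filter, scaling, variance trend, replicate block and libraries.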

Additional observations from a re-analysis of the deposited data

How the results depend on the processing

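ZSCAN18 kept its direction under all 12 alternatives, and its call under 10; its log2 fold change was 6.65 to 6.70 with 1 library left out, and 8.98 and 7.51 with a pseudocount of 0.1 and 0.5. No other member was called under any alternative, so the number called higher was 0 to 1 with 1 library left out and 1 otherwise. The median log2 fold change of the other members, 0.18, was 0.30 and 0.23 with a pseudocount of 0.1 and 0.5, 0.14 over 40 members with no filter, 0.15 after median of ratios scaling, 0.12 after quantile normalization and 0.19 to 0.23 with 1 library left out. The median of all tested genes moved from 0.04 to 0.01 under both scalings. With a filter at an FPKM of 0.1, 5 of 37 members in place of 3 of 30 were separate and lower, beside 20.8% in place of 24.4% of all tested genes. Separate and higher were 17 in place of 16, beside 32.4% in place of 35.8%. The share of ZSCAN18 was 54.0 to 54.6% with 1 library left out and 119% as a ratio to the other members. Of the genes tied to SCAN factors, MAP1LC3B among them, 1 was called after both scalings and with both pseudocounts, and 0 with a filter at 0.1, with no filter, without the variance trend, with the replicate block and without any 1 library (0 to 0). Values near 0 changed sign: ZNF263 was -0.01 after median of ratios scaling and -0.02 after quantile normalization. With 1 library left out ZNF263 ran from -0.06 to 0.11, ZNF174 from -0.04 to 0.39, ZSCAN5A from -0.11 to 0.06 and SCAND1 from -0.19 to 0.07. The cause of these changes was not tested. Where 1 library is left out, the lone library is assumed to vary like the other group. Over all tested genes 209 were called, against 52 with a filter at 0.1, 1 with no filter, 99 without the variance trend, 1 with the replicate block, 280 and 261 after the scalings and 0 to 1 with 1 library left out. With the replicate number as a block the adjusted p of ZSCAN18 in limma was 0.0210; same-numbered libraries had a correlation of deviations of 0.034 over 11822 genes, and with 2 pairs the numbers cannot be taken to pair the samples. Depth limits members under an FPKM of about 1, where few fragments decide a value.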

Other observations

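For 4 members with a single transcript in the deposited table the fragments behind the FPKM were estimated from transcript length and estimated depth. ZSCAN22, with 4629 bases, rested on about 137 and 127 fragments in ZSCAN18 cells against 105 and 111. ZNF165, with 2107 bases, rested on 116 and 118 against 95 and 86, and ZSCAN16, with 1328 bases, on 84 and 76 against 60 and 80. ZKSCAN4, below the filter, rested on 32 and 38 against 53 and 33. These estimates cover counting error only through their size, and they rest on the assumed value of 1 fragment.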
